A study of Mus musculus with 16 samples.

Results

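The Cyp2c genes encode a family of cytochrome P450 enzymes, and 10 of them were followed here in mouse liver: Cyp2c29, Cyp2c37, Cyp2c38, Cyp2c39, Cyp2c40, Cyp2c44, Cyp2c50, Cyp2c54, Cyp2c55 and Cyp2c70. They were chosen by name, as 10 of the 24082 genes of the deposited table. The rule uses no measured value, but it was written with earlier results of these data known. All 10 passed the filter on low values that left 12522 genes for testing. The table held 6 further genes whose symbol starts with Cyp2c, namely Cyp2c65, Cyp2c66, Cyp2c67, Cyp2c68, Cyp2c69 and the pseudogene Cyp2c53-ps, and these are given beside the 10 where they bear on them.

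The RNA came from the livers of 16 mice, in 4 groups of 4. All mice were females of strain C57BL6/J, aged 9 to 11 weeks, and carried no engineered allele. Pair vehicle mice were pair-fed a liquid control diet in which maltose dextrin replaced the calories of ethanol. Pair IMC mice received the same diet with iodomethylcholine (IMC), an inhibitor of the microbial enzyme that cleaves choline to trimethylamine, at 0.06% by weight. EtOH vehicle mice drank the liquid diet with ethanol, raised in steps to 6% by volume over 25 days, and EtOH IMC mice received ethanol and IMC together. The study describes lower food intake and body weight in mice given both. In EtOH IMC the drug, the ethanol dose and the intake of food therefore cannot be told apart. A figure legend of the study also marks a difference in body weight between pair-fed mice with and without IMC. In Pair IMC the drug and body weight cannot be told apart either.

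Cytochrome P450 enzymes are heme proteins of the endoplasmic reticulum that insert 1 atom of oxygen into lipids, drugs and other small molecules, with electrons passed on by P450 reductase. The Cyp2c enzymes of the mouse are known mainly for arachidonic acid, which several convert to epoxides that signal in vessels and others hydroxylate along the chain, while Cyp2c70 makes muricholic acids, the bile acids typical of mouse and rat. The genes lie mostly in a single cluster, are transcribed in hepatocytes, and are known targets of the nuclear receptors CAR and PXR, of HNF4A and of growth hormone signalling. The comparisons below ask how each gene differed with ethanol feeding and with the inhibitor, and whether close relatives moved together.

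The libraries held from 9632659 to 12601199 gene reads, of which the 10 Cyp2c genes took 0.346% to 1.01%. Nothing in the labels says which mice shared a cage. A p-value here sets a difference against the spread between livers, estimated over all 4 groups together and with information from other genes. Values are normalised counts, that is the read counts divided by 1 factor per library and set to a common scale over all 16. On this scale the median gene differed by -0.002 on the log2 scale between ethanol-fed and pair-fed mice, against 0.19 on the scale as deposited, so that the call of a smaller change with ethanol can depend on the scale. Albumin (Alb), the main product of hepatocytes, took 6.74% to 13% of the reads, as befits liver. The library numbers in the sample names run from 1 to 8 for Pair IMC and EtOH vehicle and from 9 to 16 for Pair vehicle and EtOH IMC. Each comparison of a single pair of groups, and the difference of the IMC effects between diets, therefore also compares the lower with the higher numbers. The 2 cannot be told apart, whereas the effects averaged over both diets or both treatments are balanced over lower and higher numbers. All ethanol-fed livers have odd numbers and all pair-fed livers even ones, so that every ethanol effect also compares odd with even. In liver as a whole, fewer cells of a type and less RNA per cell cannot be told apart.

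On chromosome 19 (GRCm38, GENCODE vM21) the genes follow each other in the order Cyp2c55, Cyp2c65, Cyp2c66, Cyp2c53-ps, Cyp2c29, Cyp2c38, Cyp2c39, Cyp2c67, Cyp2c68, Cyp2c40, Cyp2c69, Cyp2c37, Cyp2c54, Cyp2c50 and Cyp2c70, from position 39007019 to position 40187333. Cyp2c44, which GENCODE calls Cyp2c23, stands outside this cluster at 44005022 to 44029208. The coding sequences fall into sets of near relatives. Cyp2c37 and Cyp2c50 share 96.1% of their coding bases, Cyp2c50 and Cyp2c54 95.2%, and Cyp2c38 and Cyp2c39 94.2%, while Cyp2c29 shares 89.5% with Cyp2c39 and 89.1% with Cyp2c38. Cyp2c44 is the most distant, with at most 65.9% shared with any other of the 10, and Cyp2c70 shares at most 70.2%. Reads of near-identical stretches can be assigned to the wrong copy. Of all stretches of 100 bases, the read length in the labels, 44.1% in the Cyp2c40 transcript occur unchanged in another Cyp2c gene, mostly Cyp2c69, against 9.40% in Cyp2c50, 7.59% in Cyp2c54, 4.70% in Cyp2c37 and 0% in Cyp2c29, Cyp2c38, Cyp2c39, Cyp2c44, Cyp2c55 and Cyp2c70. Values of Cyp2c40, and to a lesser degree of Cyp2c50, Cyp2c54 and Cyp2c37, are uncertain to that extent.

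The sequences before the starts of these genes are shown for 6 of them, because relatives with like sequence here differed in how they changed. The table of RefSeq promoters (GRCm38.p6) held 8 of the 10 genes, all but Cyp2c54 and Cyp2c44. The windows run from 250 bases before the annotated start to 50 bases after it, on the strand of the gene, and lie at chr19:39286835-39287134 (+ strand), chr19:39510572-39510871 (+ strand), chr19:39463026-39463325 (- strand), chr19:39992174-39992473 (+ strand), chr19:40089429-40089728 (+ strand) and chr19:39812765-39813064 (- strand). Cyp2c39 has 2 entries, and the one at the GENCODE start is used. The Cyp2c29 start lies 17680 bases inside the GENCODE gene, which begins further upstream. Capitals mark a 9-base string of the type that HNF4A, a hepatocyte nuclear receptor, is known to bind, or the letters that align with it in the nearest relative.
Cyp2c29: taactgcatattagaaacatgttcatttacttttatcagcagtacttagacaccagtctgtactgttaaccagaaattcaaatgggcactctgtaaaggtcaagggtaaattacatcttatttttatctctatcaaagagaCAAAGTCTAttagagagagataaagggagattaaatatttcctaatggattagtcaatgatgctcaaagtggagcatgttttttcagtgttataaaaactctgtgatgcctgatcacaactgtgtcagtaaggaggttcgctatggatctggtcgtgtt
Cyp2c39: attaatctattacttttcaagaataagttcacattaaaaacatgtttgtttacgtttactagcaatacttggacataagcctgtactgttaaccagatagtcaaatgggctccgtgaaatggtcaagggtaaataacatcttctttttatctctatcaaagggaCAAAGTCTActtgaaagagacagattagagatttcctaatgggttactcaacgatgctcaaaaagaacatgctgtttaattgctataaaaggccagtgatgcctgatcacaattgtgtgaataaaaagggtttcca
Cyp2c38: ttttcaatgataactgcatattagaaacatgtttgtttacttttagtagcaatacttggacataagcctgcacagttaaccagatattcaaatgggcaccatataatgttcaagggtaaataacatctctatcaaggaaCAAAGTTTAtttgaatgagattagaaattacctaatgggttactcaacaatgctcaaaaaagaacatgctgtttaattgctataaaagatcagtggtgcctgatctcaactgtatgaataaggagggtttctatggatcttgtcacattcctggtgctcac
Cyp2c37: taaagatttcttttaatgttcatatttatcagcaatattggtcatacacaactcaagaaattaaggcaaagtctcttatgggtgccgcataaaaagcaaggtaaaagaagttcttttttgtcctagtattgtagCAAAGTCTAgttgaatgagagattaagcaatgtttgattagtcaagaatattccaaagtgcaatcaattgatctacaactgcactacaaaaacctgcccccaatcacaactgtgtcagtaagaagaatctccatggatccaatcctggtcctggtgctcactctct
Cyp2c50: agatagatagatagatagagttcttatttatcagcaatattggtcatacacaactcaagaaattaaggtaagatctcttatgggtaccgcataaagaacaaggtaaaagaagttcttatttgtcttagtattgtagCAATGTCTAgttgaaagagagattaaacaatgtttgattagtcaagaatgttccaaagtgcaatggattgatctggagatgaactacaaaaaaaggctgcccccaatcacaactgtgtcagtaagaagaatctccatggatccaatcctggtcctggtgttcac
Cyp2c40: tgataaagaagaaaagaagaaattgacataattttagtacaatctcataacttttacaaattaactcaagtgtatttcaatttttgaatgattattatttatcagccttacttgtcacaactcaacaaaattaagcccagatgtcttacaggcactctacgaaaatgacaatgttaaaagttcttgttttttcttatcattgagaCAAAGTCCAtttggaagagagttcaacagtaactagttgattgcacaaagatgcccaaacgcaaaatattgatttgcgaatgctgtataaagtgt

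The string CAAAGTCTA stood in the windows of Cyp2c29, Cyp2c39 and Cyp2c37, and in 0.24% of 32851 promoters of the same length. It was searched for after the sequences had been read, and counts only as a description. The string CAAAGTCCA stood in the windows of Cyp2c40 and Cyp2c70, as in those of Cyp2c65, Cyp2c67, Cyp2c68 and Cyp2c69, and in 0.475% of all promoters. Both were searched on both strands and differ from each other at a single base. In Cyp2c38 the aligned letters were CAAAGTTTA, which is C7T against Cyp2c39, and in Cyp2c50 they were CAATGTCTA, which is A4T against Cyp2c37, with positions counted from 1 at the first capital. The windows of Cyp2c39 and Cyp2c38 were identical at 83.0% of aligned positions, those of Cyp2c29 and Cyp2c39 at 78.5%, and those of Cyp2c37 and Cyp2c50 at 88.3%. Those of Cyp2c68 and Cyp2c40, with the same string unchanged, were identical at 93.3%, and those of Cyp2c68 and Cyp2c69 at 92.6%. With IMC in ethanol-fed mice Cyp2c68 rose, while Cyp2c40 and Cyp2c69 fell. Of the other letters searched on both strands, a TATAAA stood in 6 of the 8 windows, all but Cyp2c37 and Cyp2c50, and in 13.6% of all promoters. AGTTCA, a nuclear receptor motif, stood in those of Cyp2c39, Cyp2c40 and Cyp2c50 and in 14% of all, TTGCNNAA of the C/EBP type in those of Cyp2c40 and Cyp2c37 and in 10.8%, and TTCNNNGAA of the STAT type in none of the 8 against 8.30% of all promoters. A match of letters shows no binding, and its absence from this window shows no lack of it.

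Compared per kilobase of transcript, which makes levels of different genes comparable, Cyp2c29 had the highest level of the family in each of the 4 groups when the transcript with the longest coding sequence sets the length. In Pair vehicle it stood at 7619 normalised counts per kilobase, apart from all others, followed by Cyp2c37 at 4330.0 and Cyp2c70 at 4119.7, whose ranges over the 4 livers overlapped. Among the 10, Cyp2c50 at 2598 and Cyp2c40 at 2093 came next and also overlapped, below Cyp2c69 at 3578 and Cyp2c68 at 3456, which are outside the 10. Cyp2c40 overlapped with Cyp2c44 at 1024 through library 16. Then came Cyp2c38 at 483, Cyp2c54 at 353, Cyp2c39 at 142 and Cyp2c55 at 14.3. From Cyp2c44 downwards each of the 10 was apart from the next. The order was not the same in all groups. In EtOH vehicle Cyp2c50 stood at 7384, above Cyp2c70 at 4236 with no overlap, and Cyp2c54 at 1451 overlapped with Cyp2c40 at 1567. In EtOH IMC Cyp2c39 stood at 22 and overlapped with Cyp2c55 at 24. The first place depends on that choice. With the union of all annotated exons as the length, Cyp2c37 was above Cyp2c29 in Pair IMC, at 5395 against 5233 per kilobase, and in EtOH vehicle, at 10991 against 10409, while Cyp2c29 stayed above it in Pair vehicle, at 4438 against 4330.0, and in EtOH IMC, at 15733 against 13498.

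Summed per kilobase over the 16 genes of the family, the level was 30777 ± 2664 (SD, n = 4) in Pair vehicle, 33388 ± 822 in Pair IMC, 51337 ± 7306 in EtOH vehicle and 60983 ± 6832 in EtOH IMC. The ethanol-fed livers, from 42283 upwards, were all above the pair-fed livers, of which the highest reached 33996. Cyp2c29 made up 24.8% ± 2.15 of this sum in Pair vehicle, 26.9% ± 2.15 in Pair IMC, 34.5% ± 3.62 in EtOH vehicle and 43.8% ± 6.47 in EtOH IMC. The share of Cyp2c40 was 6.75% ± 0.899 in Pair vehicle and 1.11% ± 0.536 in EtOH IMC. The length used here is again that of the transcript with the longest coding sequence. For Cyp2c29 it is 1783 bases, against 3061 for the union of all annotated exons, so that its share depends on that choice. No test was made of these sums and shares, which describe the members together.

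**Figure D1:**
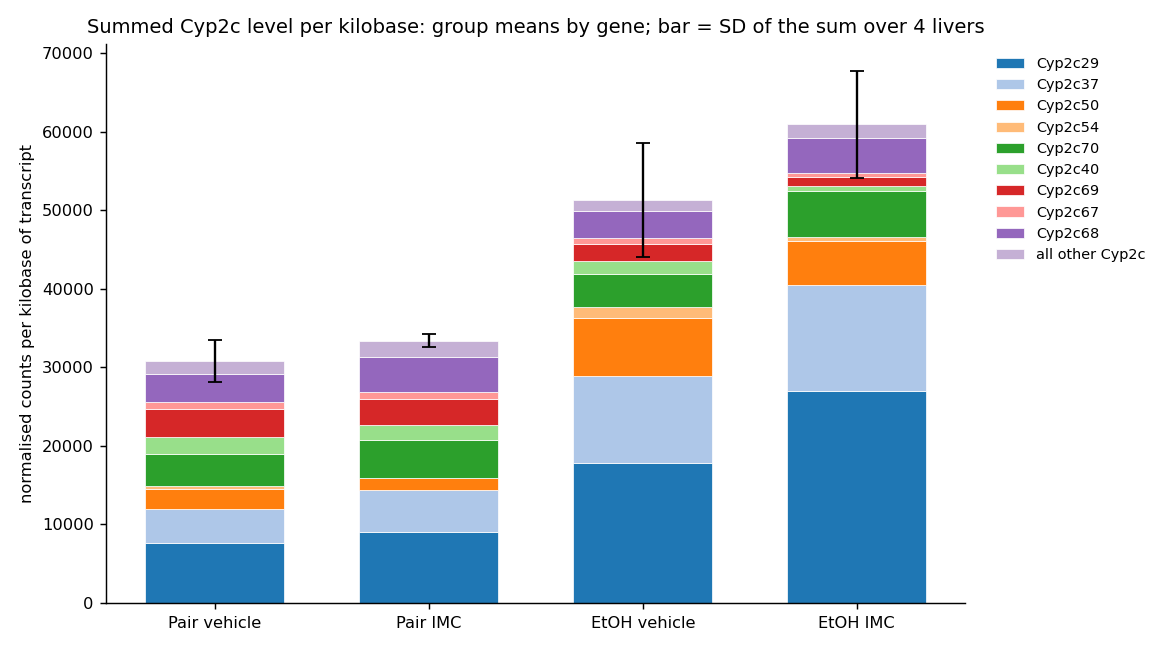
Summed level of the Cyp2c genes in normalised counts per kilobase of transcript (vertical axis) for the 4 groups, stacked by gene as group means, with the SD of the sum over 4 livers as error bar. The sum is 30777 in Pair vehicle and 60983 in EtOH IMC, and the lowest block, Cyp2c29, takes a growing share of it.

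Ethanol feeding raised 5 of the 10 genes in vehicle mice and lowered none in the test across all genes (limma, Benjamini-Hochberg adjusted p under 0.05), where 6.35% of the 12522 genes tested were higher and 5.56% lower. In mice given IMC it raised 4 and lowered 3, against 7.87% and 8.61% of all genes, and averaged over both treatments it raised 5 and lowered 3, against 13% and 13.2%. On the scale as deposited, where the median gene lies higher with ethanol, 6 of the 10 rose and 3 fell averaged over treatments, the sixth being Cyp2c70, while 4730 of all genes rose and 492 fell, in place of 1622 and 1651. The genes that rose were Cyp2c29, Cyp2c37, Cyp2c50 and Cyp2c54 in both treatments and Cyp2c55 in vehicle mice, and those that fell were Cyp2c38, Cyp2c39 and Cyp2c40. The median log2 change of the 10 was 0.54 in vehicle mice, 0.18 in IMC mice and 0.36 averaged, against -0.01, 0.00 and -0.00 for all genes tested. In vehicle mice the values of the 2 groups did not overlap for 5 of the 10 that were higher and 2 that were lower, against 19.0% of all genes in either direction, and in IMC mice for 4 and 3, against 19.2%.

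With IMC some of the 10 rose and others fell. In pair-fed mice 1 of 10 rose and 2 fell, against 4.32% and 5.17% of all genes, and in ethanol-fed mice 2 rose and 3 fell, against 10.4% and 11.1%. Averaged over both diets 4 rose and 4 fell, against 14.1% and 14%. The difference of the IMC effects between diets was below 0 with an adjusted p under 0.05 for 2 genes, Cyp2c39 and Cyp2c40, and above 0 for none, against 0.791% and 0.319% of all genes. The median log2 change of the 10 was 0.24 in pair-fed and -0.02 in ethanol-fed mice, against -0.00 for all genes tested in both. Groups were apart for 2 genes that were higher and 2 that were lower in pair-fed mice, against 14.3% of all genes in either direction, and for 1 and 4 in ethanol-fed mice, against 25.3%. The comparisons share groups, so that their counts are not independent of each other.

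**Figure D2:**
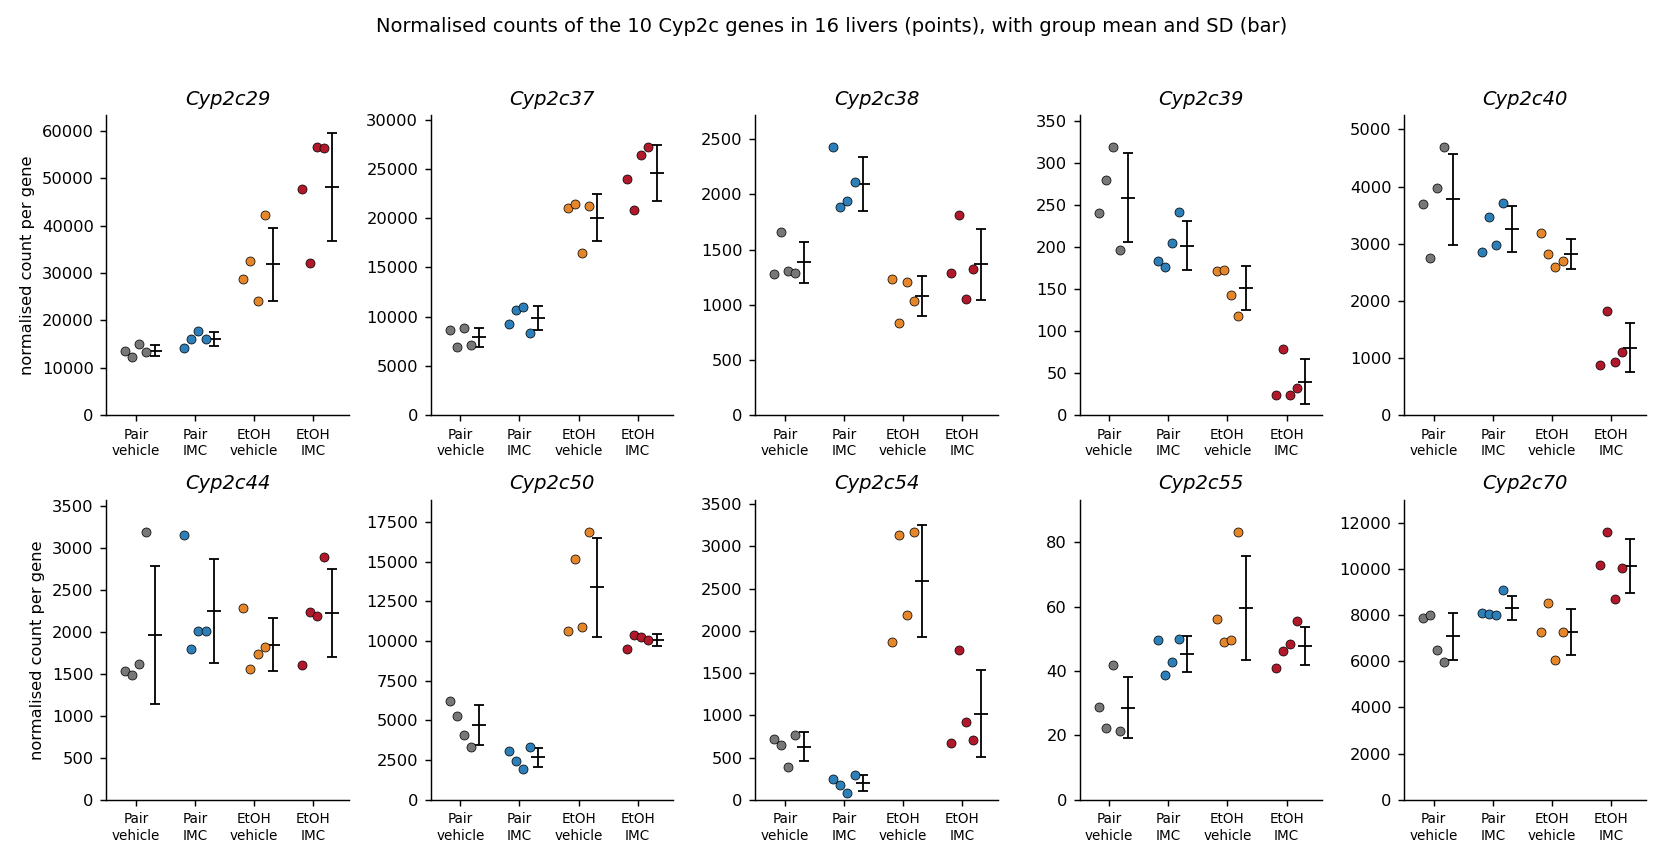
Normalised counts per gene (vertical axes, each from 0) in the 16 livers, with 1 panel for each of the 10 Cyp2c genes and the 4 groups along the horizontal axis, and bars give the group mean and SD. Cyp2c37 lies between 16482 and 27182 in ethanol-fed livers and between 6948 and 10981 in pair-fed livers, and Cyp2c39 between 23.7 and 79.1 in EtOH IMC against 118 or more elsewhere.

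Cyp2c29, which makes epoxides of arachidonic acid and is a known target of CAR, had 13632, 12324, 15079 and 13306 normalised counts in the 4 Pair vehicle livers and 14112, 16146, 17850.4 and 15967 in Pair IMC. The ethanol-fed livers held 28755, 32531, 24021 and 42146 in EtOH vehicle and 47737, 32129, 56466 and 56298 in EtOH IMC. Every ethanol-fed liver was above every pair-fed one, and with ethanol the livers also spread further apart. The group means were 13585 ± 1140.3, 16019 ± 1528, 31863 ± 7689 and 48157 ± 11437 (SD, n = 4), in the same order. Ethanol raised Cyp2c29 by 1.20 ± 0.18 (SE) on the log2 scale in vehicle mice, or 2.3-fold (adjusted p = 0.000769), and by 1.56 ± 0.18 (SE) in IMC mice, or 2.94-fold (adjusted p = 4.03e-05).

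With IMC, Cyp2c29 differed by 0.24 ± 0.18 (SE) in pair-fed mice (adjusted p = 0.44) and rose by 0.59 ± 0.18 (SE) in ethanol-fed mice, or 1.51-fold (adjusted p = 0.0256). The 2 ethanol-fed groups overlapped, through library 11 of EtOH IMC at 32129 and library 7 of EtOH vehicle at 42146. The call in ethanol-fed mice was lost when library 1 or 5 of EtOH vehicle or library 13 or 15 of EtOH IMC was left out, with adjusted p between 0.0658 and 0.0894, and was kept without library 11, where the log2 change was 0.77 (adjusted p = 0.0032). It was also lost when only the libraries of the comparison entered the fit (adjusted p = 0.0661). Averaged over both diets, the rise was 0.41 ± 0.13 (SE) (adjusted p = 0.0208) and held without any single library.

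Cyp2c38 and Cyp2c39 are the neighbours and nearest relatives of Cyp2c29 and also make epoxides of arachidonic acid, and Cyp2c39 is known in addition to hydroxylate retinoic acid. Averaged over treatments, both fell with ethanol, with which Cyp2c29 rose. Cyp2c38 had 1279, 1661, 1307 and 1291 normalised counts in Pair vehicle and 2424, 1881, 1942 and 2115 in Pair IMC. It had 1231, 835, 1208 and 1036 in EtOH vehicle and 1285, 1813, 1051 and 1320.5 in EtOH IMC. Each Pair IMC liver was above each Pair vehicle liver, while the 2 ethanol-fed groups overlapped. IMC raised Cyp2c38 in pair-fed mice by 0.60 ± 0.15 (SE), or 1.51-fold (adjusted p = 0.0202), and the difference in ethanol-fed mice was 0.33 ± 0.15 (SE) (adjusted p = 0.124). Without library 2 of Pair IMC or library 10 of Pair vehicle the adjusted p in pair-fed mice was 0.0575 and 0.0505, and the rise averaged over diets, 0.46 ± 0.11 (SE) (adjusted p = 0.00371), held without any library. With ethanol Cyp2c38 fell by 0.63 ± 0.15 (SE) on the log2 scale in IMC mice (adjusted p = 0.00912), and in vehicle mice its change was -0.37 ± 0.15 (SE) (adjusted p = 0.117), although the 2 groups did not overlap.

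Cyp2c39 had 240.2, 280.0, 318 and 196 normalised counts in Pair vehicle and 184, 176, 204 and 242 in Pair IMC. It had 171, 172, 143 and 118 in EtOH vehicle, and 23.9, 79.1, 23.7 and 32.9 in EtOH IMC, from 28, 94, 24 and 35 reads. All EtOH IMC livers were below all others, and library 11, at 79.1, lay apart from the other 3 of its group. IMC lowered Cyp2c39 4.18-fold in ethanol-fed mice, a log2 change of -2.06 ± 0.28 (SE) (adjusted p = 9.57e-05), against -0.35 ± 0.28 (SE) in pair-fed mice (adjusted p = 0.469). Without library 11 the group mean was 26.8 ± 5.22, the log2 change -2.45 and the adjusted p 6.05e-07. Ethanol lowered it 5.58-fold in IMC mice, a log2 change of -2.48 ± 0.28 (SE) (adjusted p = 3.13e-05). In vehicle mice the groups did not overlap, and the change was -0.76 ± 0.28 (SE) (adjusted p = 0.0804). This change passed without library 11 (adjusted p = 0.0077), which is in neither of these groups and enters only through the shared estimate of the spread. It also passed with DESeq2 (adjusted p = 0.0271) or edgeR with TMM scaling (adjusted p = 0.0489). It did not with edgeR's upper quartile scaling (adjusted p = 0.052) or on the values as deposited (adjusted p = 0.142).

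The IMC effects on Cyp2c39 in the 2 diets differed, as ethanol-fed minus pair-fed, by -1.72 ± 0.39 (SE) on the log2 scale (adjusted p = 0.045). This call was close to the threshold. It was kept without library 11 of EtOH IMC (-2.10, adjusted p = 0.000355) and without library 4 of Pair IMC, and lost without any other single library, with values between -1.83 and -1.54 and adjusted p between 0.0511 and 0.0918. With edgeR's quasi-likelihood test on the whole reads the adjusted p was 0.0584. The averaged effects are balanced over lower and higher library numbers, although the ethanol effect also compares odd with even numbers. There the log2 change of Cyp2c39 was -1.21 with IMC (adjusted p = 0.000272) and, with ethanol, -1.62 (adjusted p = 2.91e-05).

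Cyp2c44, an epoxygenase of arachidonic and linoleic acid known from kidney and liver, passed the test in none of the 7 comparisons. It had 1542, 1491, 1623 and 3195 normalised counts in Pair vehicle and 3165, 1799, 2019 and 2017 in Pair IMC. It had 2289, 1555, 1745 and 1823 in EtOH vehicle and 1609.9, 2237, 2187 and 2897 in EtOH IMC. All 4 groups overlapped, with library 16 of Pair vehicle and library 2 of Pair IMC well above the others of their groups. With ethanol averaged over treatments its log2 change was -0.01 ± 0.16 (SE), with a 95% confidence interval from -0.35 to 0.33, and with IMC averaged over diets 0.25 ± 0.16 (SE), from -0.09 to 0.59. Without library 16 of Pair vehicle the averaged IMC effect was 0.38 (adjusted p = 0.0387).

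Cyp2c37, Cyp2c50 and Cyp2c54 are near copies of each other, known to hydroxylate arachidonic acid or to make epoxides of it. All 3 rose with ethanol, and they differed in what was measured with IMC. Cyp2c37 had 8608, 6948, 8871 and 7166 normalised counts in Pair vehicle and 9306, 10682, 10981 and 8395 in Pair IMC. It had 21035, 21482, 16482 and 21195 in EtOH vehicle and 23998, 20859, 26444 and 27182 in EtOH IMC. The ethanol-fed and pair-fed livers were fully apart, with groups that varied little. Ethanol raised Cyp2c37 2.54-fold in vehicle mice, or 1.34 ± 0.13 (SE) on the log2 scale (adjusted p = 1.12e-05), and 2.5-fold in IMC mice (adjusted p = 4.71e-06). The IMC effect was 0.32 ± 0.13 (SE) in pair-fed mice (adjusted p = 0.124) and 0.30 ± 0.13 (SE) in ethanol-fed mice (adjusted p = 0.104), and averaged over both it was a rise of 0.31 (adjusted p = 0.0162).

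Cyp2c50 had 6193, 5278, 4051 and 3309 normalised counts in Pair vehicle and 3048, 2413, 1954 and 3292 in Pair IMC, where every liver was below every Pair vehicle liver by a narrow margin. It had 10632, 15153, 10862 and 16871 in EtOH vehicle and 9492, 10352, 10253 and 10071 in EtOH IMC, again without overlap. Ethanol raised it 2.86-fold in vehicle mice, or 1.52 ± 0.19 (SE) (adjusted p = 0.000236), and 3.83-fold in IMC mice, or 1.94 ± 0.19 (SE) (adjusted p = 8.15e-06). IMC lowered it 1.74-fold in pair-fed mice, a log2 change of -0.80 ± 0.19 (SE) (adjusted p = 0.0161), and the change in ethanol-fed mice was -0.39 ± 0.19 (SE) (adjusted p = 0.166). The call in pair-fed mice was lost without library 4 or 6 of Pair IMC, with adjusted p of 0.0526 and 0.0619. The effect averaged over diets, -0.59 ± 0.14 (SE) (adjusted p = 0.00378), was kept without any single library.

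Cyp2c54 had the largest log2 change of the 10 with ethanol in vehicle mice and averaged over treatments, and in IMC mice it came after Cyp2c39. It had 722, 646, 385 and 767 normalised counts in Pair vehicle and 248, 171, 82.7 and 290.3 in Pair IMC. It had 1872, 3132, 2193 and 3171 in EtOH vehicle and 674, 1777, 925 and 706 in EtOH IMC. Within each diet the IMC livers were below the vehicle livers without overlap, by a margin that library 11 of EtOH IMC, at 1777, made small. Ethanol raised Cyp2c54 4.15-fold in vehicle mice, or 2.05 ± 0.35 (SE) (adjusted p = 0.00182), and 5.23-fold in IMC mice, or 2.39 ± 0.35 (SE) (adjusted p = 0.000311). IMC lowered it 3.39-fold in pair-fed mice, a log2 change of -1.76 ± 0.35 (SE) (adjusted p = 0.00517), and 2.69-fold in ethanol-fed mice, -1.43 ± 0.35 (SE) (adjusted p = 0.00804). Without library 11 the change in ethanol-fed mice was -1.73 (adjusted p = 0.00229). The means of EtOH IMC, 1020.4 ± 517, and Pair vehicle, 629.7 ± 171, lay near each other, and that pair of groups was not tested.

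Averaged over diets, the IMC effect on the 3 near copies was therefore 0.31 for Cyp2c37, -0.59 for Cyp2c50 and -1.59 for Cyp2c54, with 95% confidence intervals from 0.12 to 0.50, -0.88 to -0.31 and -2.11 to -1.07 that do not overlap between any 2 of them. The difference between genes was not itself tested. How reads of stretches that these genes share were counted is not known, and their effect on these values was not tested.

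Cyp2c40 hydroxylates arachidonic acid near the end of its chain. It had 3692, 2754, 3967 and 4684 normalised counts in Pair vehicle and 2860.2, 3474, 2977 and 3717 in Pair IMC. It had 3194, 2816, 2588 and 2700.4 in EtOH vehicle and 882, 1815, 935 and 1105 in EtOH IMC. As with Cyp2c39, the EtOH IMC livers were below all others and library 11 was the highest of them. IMC lowered Cyp2c40 2.48-fold in ethanol-fed mice, -1.31 ± 0.19 (SE) on the log2 scale (adjusted p = 0.000157), against -0.20 ± 0.19 (SE) in pair-fed mice (adjusted p = 0.549). Without library 11 the mean of EtOH IMC was 974 ± 117 and the log2 change -1.54 (adjusted p = 5.51e-06). Ethanol lowered it 2.85-fold in IMC mice, -1.51 ± 0.19 (SE) (adjusted p = 8.27e-05), and its change in vehicle mice was -0.40 ± 0.19 (SE) (adjusted p = 0.176), with overlapping groups.

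The IMC effect on Cyp2c40 differed between diets by -1.12 ± 0.26 (SE) (adjusted p = 0.0493). That call was kept without library 11 of EtOH IMC (-1.34, adjusted p = 0.00293) and without library 16 of Pair vehicle, and lost without any other single library, with adjusted p from 0.0615 to 0.103. With edgeR's quasi-likelihood test the adjusted p was 0.0726. The effects averaged over diets and over treatments, -0.75 for IMC (adjusted p = 0.000497) and -0.95 for ethanol (adjusted p = 8.87e-05), were kept without any library. The genes with which Cyp2c40 shares sequence did not all follow it. Cyp2c69 shares the most with it, 26.8% of the stretches of 100 bases in the Cyp2c40 transcript. Pearson's r between the log2 values of the 2 genes was 0.95 over the 16 livers and 0.93 for deviations from the group means. How far reads of Cyp2c69 enter the values of Cyp2c40 was not tested. Cyp2c69 fell with IMC in ethanol-fed mice by 1.17 ± 0.31 (SE) on the log2 scale (adjusted p = 0.0137), from 3678 ± 583 to 1781 ± 962 normalised counts, and Cyp2c67 fell by 0.77 ± 0.23 (adjusted p = 0.0221). Cyp2c68 rose with IMC in both diets, by 0.39 ± 0.10 (SE) in pair-fed mice (adjusted p = 0.0277) and 0.42 ± 0.10 (SE) in ethanol-fed mice (adjusted p = 0.00827). Leaving out a single library ended the call for Cyp2c67 in 4 of 16 cases and for Cyp2c68 in pair-fed mice in 4 of 16.

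Cyp2c55, a hydroxylase of arachidonic acid best known from the gut, had the lowest level of the 10 in pair-fed livers, with 21 to 83 reads per library over the 4 groups. Its normalised counts were 28.8, 22.4, 42 and 21.2 in Pair vehicle and 49.5, 38.7, 42.8 and 50.1 in Pair IMC. They were 56.1, 48.9, 49.7 and 83.2 in EtOH vehicle and 41, 46.3, 48.5 and 55.4 in EtOH IMC. EtOH vehicle was above Pair vehicle without overlap, and the 2 IMC groups overlapped. Ethanol raised it 2.07-fold in vehicle mice, 1.05 ± 0.21 (SE) (adjusted p = 0.00478), and without library 7 of EtOH vehicle by 0.88 (adjusted p = 0.0199). In IMC mice the change was 0.08 ± 0.21 (SE), with a 95% confidence interval from -0.37 to 0.53. With IMC in pair-fed mice it was 0.69 ± 0.21 (SE) (adjusted p = 0.0502), and the difference of the IMC effects between diets was -0.97 ± 0.30 (SE) (adjusted p = 0.126). Of 12 markers of intestinal epithelium 11 were in the table and 5 passed the filter. Their summed level ranged from 4742 to 7669 in Pair vehicle, 5948 to 8269 in Pair IMC, 6387 to 18679 in EtOH vehicle and 4566 to 29888 in EtOH IMC. Cdx1 and Cdx2, which define the cell type, were at 0 in each library. The markers include Apoa4, which is also on the list of periportal hepatocyte genes read below, so that this sum does not measure gut tissue.

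Cyp2c70 makes muricholic acids from chenodeoxycholic acid. It had 7862, 7992, 6484 and 5956 normalised counts in Pair vehicle and 8105, 8039, 8009.5 and 9099.8 in Pair IMC. It had 7249, 8514, 6069 and 7260.5 in EtOH vehicle and 10156, 11599, 8698 and 10037 in EtOH IMC. In both diets each IMC liver was above each vehicle liver, by a narrow margin. IMC raised Cyp2c70 1.39-fold in ethanol-fed mice, 0.48 ± 0.12 (SE) (adjusted p = 0.0089), against 0.24 ± 0.12 (SE) in pair-fed mice (adjusted p = 0.213), and by 0.36 ± 0.08 (SE) averaged over diets (adjusted p = 0.00428). Ethanol averaged over treatments gave 0.16 ± 0.08 (SE) (adjusted p = 0.177), and on the scale of the values as deposited 0.35 (adjusted p = 0.00324), so that no change with ethanol can be called independently of the scale.

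**Figure D3:**
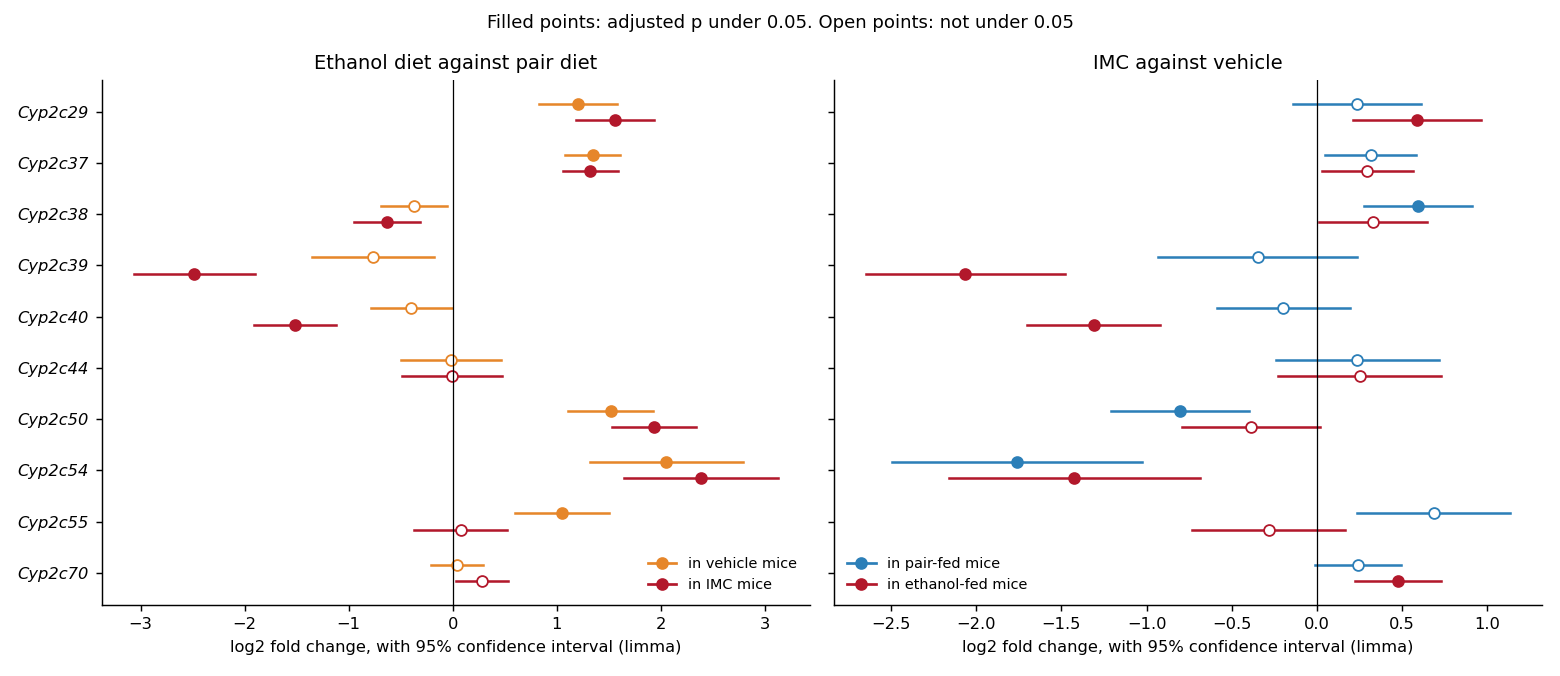
Log2 fold changes (horizontal axes) of the 10 Cyp2c genes (rows) with ethanol on the left and with IMC on the right, each shown separately for the 2 treatments or diets, with 95% confidence intervals from limma as lines. Filled points passed the test: with ethanol in vehicle mice 5 genes are filled, all right of 0, and with IMC in ethanol-fed mice Cyp2c39 (-2.06), Cyp2c54 (-1.43) and Cyp2c40 (-1.31) lie left of 0.

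Set out in gene order, the changes did not follow position alone. With ethanol averaged over treatments the neighbours Cyp2c37, Cyp2c54 and Cyp2c50 rose by 1.33, 2.22 and 1.73 on the log2 scale (adjusted p = 6.63e-08, 1.46e-05 and 5.8e-07). Next to them, Cyp2c40 fell by 0.95 and Cyp2c69 by 1.14 (adjusted p = 8.87e-05 and 0.00126), and Cyp2c68, between genes that fell, was at 0.01 (adjusted p = 0.958). On the scale as deposited Cyp2c68 was at 0.20 and was called higher (adjusted p = 0.0391). Cyp2c29 rose by 1.38 beside Cyp2c38, which fell by 0.50 (adjusted p = 1.86e-06 and 0.00248). Cyp2c65 had 0 to 19 reads per library and passed no comparison. Cyp2c66 had no read in any library, and Cyp2c53-ps 1 read in a single library, so that neither could be tested.

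**Figure D4:**
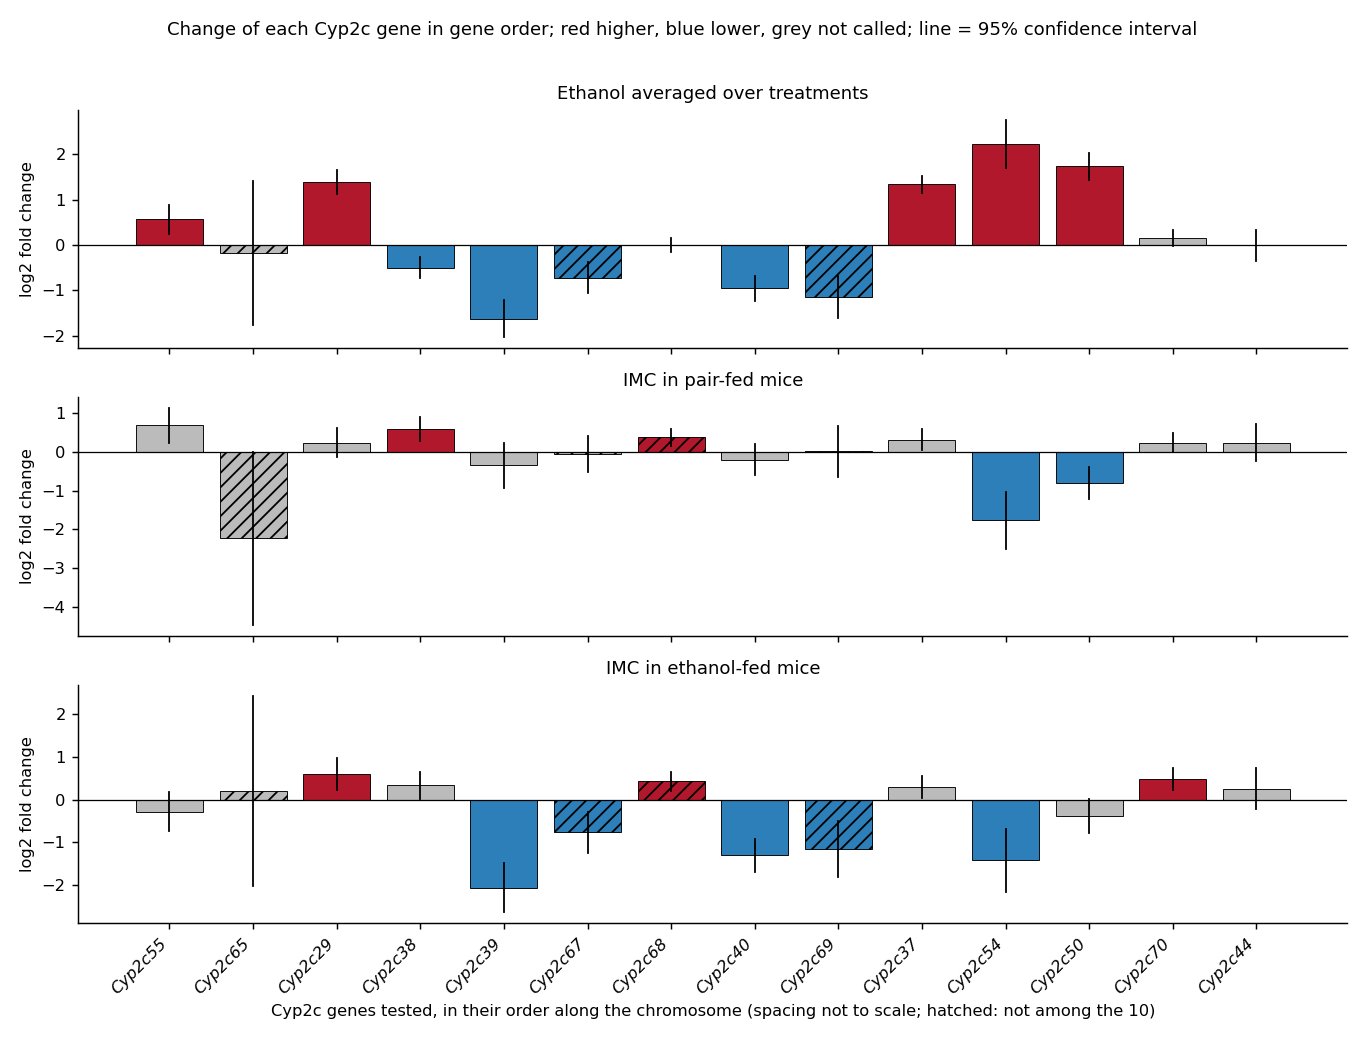
Log2 fold change (vertical axes) of the 14 Cyp2c genes tested, in their order along chromosome 19 and not to scale, with ethanol averaged over treatments, with IMC in pair-fed mice and with IMC in ethanol-fed mice. Bars in red or blue passed the test, grey bars did not, lines are 95% confidence intervals and hatched bars are Cyp2c genes outside the 10. Cyp2c37, Cyp2c54 and Cyp2c50 form a block at 1.33 to 2.22 with ethanol.

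Across the 16 livers several of the 10 genes went together and others in opposite directions. Pearson's r of the log2 values was 0.97 between Cyp2c29 and Cyp2c37, 0.92 between Cyp2c50 and Cyp2c54 and 0.96 between Cyp2c39 and Cyp2c40, and -0.87 between Cyp2c29 and Cyp2c39. These values include the difference between groups, which all livers of a group share. Within groups, as deviations from the group means, r was 0.74 for Cyp2c29 and Cyp2c37, 0.60 for Cyp2c50 and Cyp2c54, 0.65 for Cyp2c39 and Cyp2c40 and -0.59 for Cyp2c29 and Cyp2c39. For Cyp2c37 and Cyp2c54 it was 0.56 over all livers and -0.55 within groups. Library 11 of EtOH IMC enters these values, with Cyp2c29 and Cyp2c37 lower and Cyp2c39, Cyp2c40 and Cyp2c54 higher than in the other 3 livers of its group. These are descriptions over 16 livers in 4 groups, without a test.

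**Figure D5:**
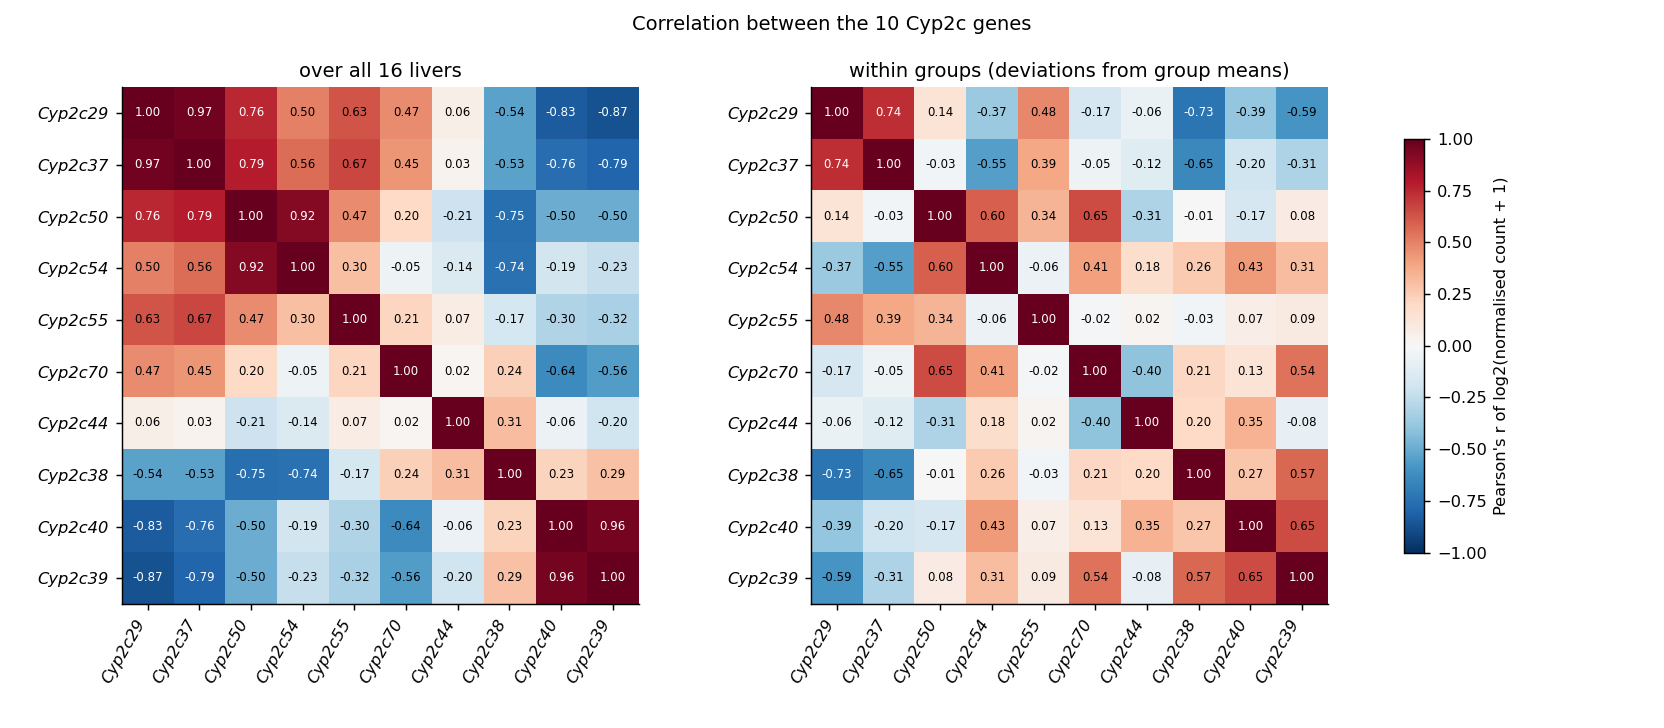
Pearson's r between the log2 normalised counts of each pair of the 10 Cyp2c genes over all 16 livers (left) and within groups (right), from blue at -1 to red at 1, with the value in each cell. Cyp2c29 and Cyp2c37 stand at 0.97 on the left and 0.74 on the right.

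Outside the family, the gene whose log2 values were most like those of Cyp2c29 over the 16 livers was Poglut1 (r = 0.97). It was Srr for Cyp2c37 (0.96), Smarcal1 for Cyp2c50 (0.97), Bsg for Cyp2c54 (0.94) and Ugt1a9 for Cyp2c55 (0.86). For the genes that fell it was Ugt1a5 for Cyp2c39 (0.96), AW549542 for Cyp2c40 (0.97) and Anapc16 for Cyp2c38 (0.90), and it was Rhoc for Cyp2c44 (0.91) and Acmsd for Cyp2c70 (0.87). Each is the highest of all genes tested outside the Cyp2c family and shares the groups and libraries with its partner.

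The known targets of CAR and PXR, a list of 27 P450, conjugation and transport genes that were all tested, were called higher more often than lower with ethanol. In vehicle mice 11 rose, none fell and 16 did not pass, where 6.35% of all genes tested rose and 5.56% fell. In IMC mice 13 rose and 5 fell, against 7.87% and 8.61%, and averaged 17 rose and 4 fell, against 13% and 13.2%, with a median log2 change of 0.43 (19 rose and 2 fell on the scale as deposited). Cyp2b10, the gene most often used as a readout of CAR, rose from 68.7 normalised counts in Pair vehicle to 3913 in EtOH vehicle (log2 change averaged over treatments 5.95, adjusted p 2.3e-10). The transporter Abcc3 rose by 1.33, adjusted p 6.63e-08, and the glutathione transferase Gstm1 by 1.46, adjusted p 5.72e-06. With IMC in ethanol-fed mice 8 of the 27 rose and 9 fell, against 10.4% and 11.1% of all genes, and in pair-fed mice 1 rose and 6 fell, against 4.32% and 5.17%. Those that fell included Cyp3a16 (in ethanol-fed mice -8.06, adjusted p 8.59e-06), which had a mean of 2911 normalised counts in EtOH vehicle and 21.8 in EtOH IMC, its near copy Cyp3a41b (-4.92, adjusted p 0.000118), with 203 and 7.70 counts, and Cyp2b13 (-1.78, adjusted p 3.93e-05), while Gstm1 rose (1.42, adjusted p 0.000198).

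Of 27 transcription factors known to act on P450 genes, all tested, 3 rose and 7 fell with IMC in ethanol-fed mice, against 10.4% and 11.1% of all genes, and 1 rose and 3 fell with IMC in pair-fed mice, against 4.32% and 5.17%. With ethanol averaged 2 rose and 7 fell, against 13% and 13.2%. The direction of that last count depends on the scale, since 7 rose and 2 fell on the scale as deposited. Hnf4a, whose product binds strings like those shown above, rose with IMC in both diets (pair-fed 0.71, adjusted p 0.00322, ethanol-fed 0.62, adjusted p 0.00298) and had a change with ethanol averaged of -0.15, adjusted p 0.254. Its sign with ethanol turned on the scale as deposited. Nr1i2, which encodes PXR, rose with IMC in ethanol-fed mice (0.33, adjusted p 0.0102). Esr1, the oestrogen receptor, fell with IMC in ethanol-fed mice (-0.85, adjusted p 0.00236). Cux2, a repressor typical of female liver, fell with ethanol averaged (-1.09, adjusted p 0.000203), as did Ppara (-0.51, adjusted p 0.00149) and Nr1h4, which encodes the bile acid receptor FXR (-0.36, adjusted p 0.00387), whose call was lost on the scale as deposited (adjusted p 0.109). Whether these factors had a part in the Cyp2c values was not tested.

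Among 11 other epoxygenases and epoxide hydrolases 5 were tested. With IMC in ethanol-fed mice 2 of them rose and 2 fell, against 10.4% and 11.1% of all genes, and with ethanol averaged 2 rose and none fell, against 13% and 13.2%. Ephx1, the microsomal epoxide hydrolase, rose with IMC (1.34, adjusted p 0.000521 in ethanol-fed mice) and with ethanol (1.33, adjusted p 2.38e-05). Ephx2, the soluble enzyme that opens the epoxides of arachidonic acid, fell with IMC in ethanol-fed mice (-0.41, adjusted p 0.00267) and rose slightly with ethanol averaged (0.20, adjusted p 0.0234). The P450 Cyp2j9 rose with IMC in ethanol-fed mice (1.68, adjusted p 0.000302). Of 25 other enzymes that release or convert arachidonic acid 20 were tested, of which 2 rose and 3 fell with IMC in ethanol-fed mice and 5 rose and 1 fell with ethanol averaged (10 and 1 on the scale as deposited), against the same shares of all genes. The carbonyl reductase Cbr1 rose with IMC (1.52, adjusted p 1.88e-06), and the hydroxylase Cyp4f14 and the phospholipase Pla2g15 fell (-1.09, adjusted p 0.000111, and -0.79, adjusted p 0.000409). Cyp4a31, a fatty acid hydroxylase with near copies, fell with ethanol averaged (-1.27, adjusted p 0.0013).

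In bile acid synthesis, where Cyp2c70 acts, 17 of 18 genes were tested. With IMC in ethanol-fed mice 2 rose and 7 fell, with a median of -0.32, against 10.4% and 11.1% of all genes, and with ethanol averaged 4 rose and 5 fell (7 and 1 on the scale as deposited), against 13% and 13.2%. Cyp8b1, which directs synthesis to cholic acid, fell with IMC in ethanol-fed mice (-2.92, adjusted p 3.6e-05), as did Akr1d1 (-0.51, adjusted p 0.00427) and Amacr (-0.32, adjusted p 0.00537), while Cyp2c70 rose there. Acox2 rose with ethanol averaged (0.62, adjusted p 5.14e-05) and Cyp27a1, the first enzyme of the acidic route, fell (-0.26, adjusted p 0.00987), a call that was lost on the scale as deposited (adjusted p 0.438). In retinoid metabolism, where Cyp2c39 acts, 25 of 29 genes were tested. None rose and 4 fell with IMC in ethanol-fed mice, against 10.4% and 11.1% of all genes, among them Dhrs3 (-0.66, adjusted p 0.00183), Bco2 (-0.59, adjusted p 0.00492) and Rdh16 (-0.67, adjusted p 0.00637). With ethanol averaged 11 rose and 3 fell (14 and 3 on the scale as deposited), against 13% and 13.2%. Cyp26b1, another P450 that breaks down retinoic acid, rose (2.94, adjusted p 3.39e-06), as did Lrat, which esterifies retinol and marks stellate cells (1.20, adjusted p 2.45e-05), and Rdh9 fell (-1.36, adjusted p 7.43e-06).

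Markers of other cells were read beside these results. Of 12 hepatocyte markers 11 were in the table and all passed the filter, with a summed level of 1291217 to 1916759 normalised counts in Pair vehicle, 1781837 to 1928102 in Pair IMC, 1197243 to 1331988 in EtOH vehicle and 1090280.4 to 1412318 in EtOH IMC. In each of the 4 comparisons of single pairs of groups at most 1 of the 11 passed the test. Of 12 stellate cell markers, all tested, 5 fell with IMC in ethanol-fed mice, against 11.1% of all genes tested. With ethanol 3 rose in vehicle mice, against 6.35%, while in IMC mice 2 rose and 2 fell, against 7.87% and 8.61%. Their sum ranged from 4691 to 6576 in Pair vehicle, 4689.9 to 5875 in Pair IMC, 6242 to 7491 in EtOH vehicle and 3723 to 5084 in EtOH IMC. Of 6 red blood cell markers 4 were tested. All 4 fell with ethanol in IMC mice, against 8.61% of all genes, and 2 fell with IMC in ethanol-fed mice, against 11.1%. Their sums ranged from 184 to 306 in Pair vehicle and 216 to 389.8 in Pair IMC. They ranged from 129.7 to 367 in EtOH vehicle and from 50.4 to 134 in EtOH IMC. Of 12 markers of Kupffer cells and macrophages none passed in any of the 4. Of 12 sinusoidal endothelial markers 3 rose with ethanol in IMC mice and 2 in vehicle mice, against 7.87% and 6.35% of all genes. With IMC 1 rose in each diet, against 4.32% in pair-fed and 10.4% in ethanol-fed mice. None of the endothelial markers fell. Of 10 bile duct markers 8 were tested and at most 1 passed per comparison, and of 10 lymphocyte markers 1 was tested and it passed in none. The part of these shifts in the Cyp2c values was not tested.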

How the data were processed

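RNA-seq of liver was made from 16 mice, 4 in each of 4 groups, and grouping followed the treatment and diet in the sample labels. The authors deposited 1 table of 27212 rows for 24082 Ensembl genes, whose values per library are a signal: gene counts that the authors divided by 1 factor per library. The submitters' processing notes name Trim Galore, FastQC, STAR, edgeR with upper quantile scaling and the genome mm10, and the counting tool is not given in the sources used here. The text describes single-end reads and the labels paired-end reads, which does not change the values used. Each value was a whole multiple of 1 read, worth 0.906 to 1.18, within 0.01 of a whole number for 100% of values, so that read counts could be recovered. For 430 genes the table gives several symbols.

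Values were rescaled by a median ratio over 13121 genes, with factors of 0.940 to 1.08. Genes had to reach 10 in 4 or more libraries, which 12522 did, and were tested on log2(value + 1) with limma 3.58.1 in R 4.3.3, with a mean for each group, a mean-variance trend and Benjamini-Hochberg adjustment over all genes tested, two-sided. A fold change on this scale understates the change of low genes. In 24 pairs of replicate livers the chi-square per gene was 5.60 to 44.0, above sampling noise, so that no library was counted as a repeat of another. The test was checked on simulated data. The alternatives were another pseudocount, filter, scaling or spread estimate, only the libraries of a comparison, each library left out, and, on the recovered reads, edgeR 4.0.16 and DESeq2 1.42.0. An edgeR fit without library 15, whose read value lies near 1, and the motif CAAAGTCTA were added after the data were seen.

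Members, gene lists and the rule for named genes were chosen with earlier results of these data known. The rule names the 10 genes, all other Cyp2c genes, Alb, for each of the 10 the gene outside the family with the highest Pearson r, and from each list up to 3 genes with the smallest adjusted p for IMC in ethanol-fed mice and up to 3 for ethanol averaged over treatments. Promoters are RefSeq's. Lengths and coordinates are GENCODE vM21's for the transcript of each gene with the longest coding sequence.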

Additional observations from a re-analysis of the deposited data

Results flagged for a closer look

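In 56 sets of 4 livers, Cyp2c genes by group, the highest or lowest value was compared with the others by the ratio of its gap to the range, and 6 passed Dixon's 95% critical value. Chance alone passes about 1 in 20 such sets. In EtOH vehicle, library 5 was lowest for Cyp2c37 at 16482 normalised counts. In Pair vehicle, library 12 was highest for Cyp2c38 at 1661 and library 16 was highest for Cyp2c44 at 3195. In Pair IMC, library 2 was highest for Cyp2c44 at 3165 and library 8 was highest for Cyp2c70 at 9100, above the other 3 of that group at 8010 to 8105. In EtOH IMC, library 11 was highest for Cyp2c39 at 79.1.

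The IMC effect differed between ethanol-fed and pair-fed mice for Cyp2c39, by -1.72 on the log2 scale (adjusted p = 0.045, limma), and for Cyp2c40, by -1.12 (adjusted p = 0.0493). In both genes the EtOH IMC livers were below all 12 others. This difference also compares library numbers 1 to 8 with 9 to 16, and the 2 cannot be told apart.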

How the results depend on the processing

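Of 1923 values of single Cyp2c genes under an alternative, 1863 stayed on their side of the threshold, 48 lost the call and 12 gained it. The sign turned in 36 of them, in 0 of which the value was called, before or after. For the difference of the IMC effects between diets, 0 of the 10 genes passed with edgeR (TMM, TMM without library 15, or upper quartile), without a filter or without the trend, against 2. Genes called in all for that difference were 139, and 339 with DESeq2, 72 with edgeR without library 15, 80 without a filter and 82 without the trend. With only the libraries of the comparison 691 genes were called for IMC in pair-fed mice, in place of 1188. On the scale as deposited 3000 genes were called for ethanol in vehicle mice, 3624 for ethanol in IMC mice and 5222 for ethanol averaged, in place of 1491, 2064 and 3273, since the median gene lies higher there. With edgeR without library 15, 1344 were called for ethanol in IMC mice. Leaving out 1 library gave 537 (without Pair IMC library 4) to 1443 (without Pair IMC library 8) genes for IMC in pair-fed mice, 54 (without EtOH vehicle library 5) to 164 (without EtOH IMC library 11) for the difference, with 0 to 2 of the 10 Cyp2c genes, 803 (without EtOH vehicle library 5) to 1597 for ethanol in vehicle mice and 1368 (without EtOH IMC library 15) to 2213 for ethanol in IMC mice. No paired analysis was possible because the library numbers in the labels are unique over the groups. The cause of these shifts was not tested. Depth limits Cyp2c55, with 83 reads or fewer in each library, and Cyp2c39 in EtOH IMC, with 94 or fewer.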

Other observations

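Genes that vary along the liver lobule were read as a group that the comparisons above do not cover. Of 22 pericentral genes, typical of hepatocytes around the central vein, where many P450 genes are expressed, 1 rose and 5 fell with IMC in ethanol-fed mice and 6 rose and 8 fell with ethanol averaged over treatments, against 10.4%, 11.1%, 13% and 13.2% of all genes tested. On the scale as deposited 9 rose and 4 fell with ethanol. Cyp2e1, the P450 that oxidizes ethanol, fell with IMC in ethanol-fed mice (log2 change -0.82, adjusted p 0.00891, limma), as did Oat (-1.17, adjusted p 0.00257) and Lect2 (-0.77, adjusted p 0.00621). With ethanol averaged Slc1a4 and Rhbg rose (1.75, adjusted p 5.99e-06, and 0.98, adjusted p 0.000517) and Glul, which encodes glutamine synthetase, fell (-0.38, adjusted p 0.000594). Of 22 periportal genes 3 rose and 4 fell with IMC in ethanol-fed mice and 8 rose and 2 fell with ethanol averaged (14 and 0 on the scale as deposited), against the same shares of all genes. Cyp2f2 fell with IMC in ethanol-fed mice (-1.38, adjusted p 2.52e-06), with a difference of the IMC effects between diets of -1.49, adjusted p 0.000436, while Hsd17b13 rose (0.76, adjusted p 8.44e-05) and the urea cycle gene Otc fell (-0.56, adjusted p 0.00167). With ethanol averaged Gldc, Aldh1b1 and Hal rose (0.73, adjusted p 3.79e-05, then 0.67, adjusted p 9.59e-05, and 0.61, adjusted p 0.00089).

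All 15 genes for the electron partners of P450 enzymes and for heme synthesis were tested. With IMC in ethanol-fed mice 2 rose and 2 fell, and with ethanol averaged 4 rose and 1 fell (6 and 0 on the scale as deposited), against the same shares of all genes. Alas1, the first enzyme of heme synthesis, rose with ethanol averaged (log2 change 1.34, adjusted p 0.000208), as did Cyb5a (0.29, adjusted p 0.0111), and Pgrmc2 fell (-0.24, adjusted p 0.0146), a call lost on the scale as deposited (adjusted p 0.573). With IMC in ethanol-fed mice Fech rose (0.30, adjusted p 0.0113) and Uros and Alad fell (-0.49, adjusted p 0.00275, and -0.49, adjusted p 0.00699).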
